A study of Drosophila melanogaster with 8 samples.

Results

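Crystal cells are the melanising blood cells of Drosophila, and 7 of the genes that mark or specify them were followed here among the 17494 genes measured in sorted embryonic macrophages. The genes were taken by name, with earlier results of these data known. They are the prophenoloxidase genes PPO1 and PPO2, the transcription factor genes lz, peb and klu, and the enzyme genes CG17109 and CG10467. All 7 were found in every library table and all 7 passed the filter on low values, at least 1 TPM in at least 4 libraries, which left 7827 genes.

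The cells came from stage 11 Drosophila melanogaster embryos kept at 29°C, and were sorted for mCherry before polyA RNA was read in 50 base reads. WT and CG9005 mutant are represented by 4 libraries each, with 15782569 to 18942789 reads recovered per library. The labels give 3xMcherry-tagged macrophages as the genotype of both groups, and they name neither the CG9005 allele nor the promoter behind the tag. Levels are given in TPM (transcripts per 1000000, scaled by gene length and library). A second stage label rises by 1 per library, 11 to 14 for WT and 15 to 18 for the mutant, against the single stage of the collection protocol, and was used only as an alternative covariate.

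In Drosophila, prophenoloxidases are stored as inactive enzymes. Once cut by a cascade of serine proteases they oxidise phenols such as dopa into quinones that polymerise to melanin, which seals wounds and encases parasites. In the embryo, crystal cells arise from the same head mesoderm as macrophages. The GATA factor srp is needed for both lineages, the Runx factor lz turns a subset of precursors into crystal cells, and Notch signalling supports that fate in larval blood. PPO1 and PPO2 are the crystal cell prophenoloxidases, while the third, PPO3, belongs to lamellocytes, the large cells that wrap parasites.

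Macrophage transcripts were abundant in all libraries. The 20 macrophage markers summed to 5927 to 9587 TPM per WT library and 7549 to 9220 TPM per mutant library, led by the engulfment receptor gene NimC4. Hml, NimC1 and eater, known from larval blood cells, stayed below 1 TPM throughout. CG9005 mRNA averaged 87.8 ± 18.4 TPM in WT against 89.1 ± 12.2 TPM in mutant libraries (SD, n = 4 each, limma adjusted p = 0.973), so its level does not check the labels. The mean correlation of a library with the others of its group, across genes, which are not independent replicates, was 0.930 to 0.955. Single pairs within a group ran from 0.921 to 0.960 and pairs across the genotypes from 0.911 to 0.940, so these ranges overlapped.

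The melanising enzymes led by level. PPO2 was the most abundant of the 7 genes, with a WT mean of 568 ± 151 TPM that exceeded 97.3% of tested genes. PPO1 followed with 61.8 ± 9.85 TPM and peb with 17.1 ± 2.59 TPM. The WT means of klu (11.1 ± 4.53 TPM) and CG10467 (10.7 ± 4.34 TPM) differed by less than their SD. CG17109 (2.97 ± 1.24 TPM) and lz (2.49 ± 0.308 TPM) were lowest, and they too differed by less than the SD of CG17109.

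**Figure D1:**
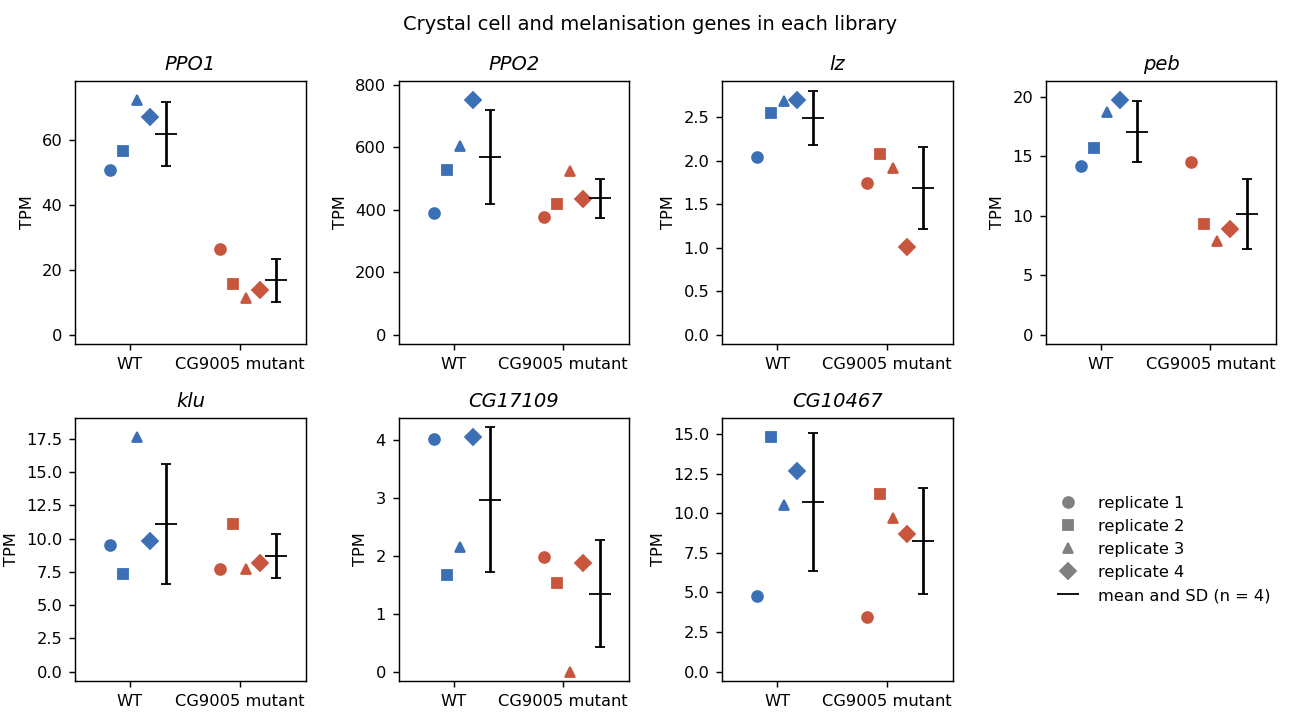
TPM of each of the 7 genes (vertical axes, one scale per gene) in the 4 WT and 4 CG9005 mutant libraries, with marker shape giving the replicate number and black bars the mean and SD. PPO1 is the gene in which all 4 mutant libraries, 11.3 to 26.5 TPM, lie below all 4 WT libraries, 50.8 to 72.5 TPM.

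PPO1 fell in the mutant. PPO1 (FBgn0283437, chromosome arm 2R, 17887220 to 17889973, minus strand, BDGP6) encodes a prophenoloxidase released into the haemolymph. Its level was 50.8, 56.7, 72.5 and 67.3 TPM in WT replicates 1 to 4, and 26.5, 15.6, 11.3 and 13.7 TPM in mutant replicates 1 to 4. Every mutant library lay below every WT library, and mutant replicate 1 was the highest of the mutant group. The mutant mean of 16.8 ± 6.73 TPM was 27.2% of the WT mean, on 1728 to 1951 reads per WT library and 361 to 800 per mutant library. The log2 fold change, mutant minus WT, was −1.88 (SE 0.25, 95% interval −2.43 to −1.32). It passed over all tested genes with a limma adjusted p of 0.00278, and the exact permutation p was 0.0286, the smallest that 70 assignments can give. A log2 fold change this low or lower was found for 42 of the 7827 tested genes. In whole sorted samples, fewer crystal cells and less PPO1 RNA per cell cannot be told apart.

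PPO2 did not pass the test. PPO2 (FBgn0033367, 2R, 9042261 to 9044709, minus strand) encodes the enzyme that fills the inclusions for which crystal cells are named. Its level was 391, 526, 604 and 752 TPM in WT replicates 1 to 4, and 375, 418, 523 and 433 TPM in mutant replicates 1 to 4. The groups overlapped, and replicate 1 was the lowest library of both. The log2 fold change was −0.35 (SE 0.19, 95% interval −0.76 to 0.06, limma adjusted p = 0.508, exact permutation p = 0.171). This value was −0.51 without WT replicate 1 and −0.20 without WT replicate 4, called in neither case. PPO2 rests on 11038 to 21246 reads per library.

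The ratio of the prophenoloxidases differed between the genotypes. PPO2 exceeded PPO1 by a factor of 7.69, 9.27, 8.34 and 11.2 in WT replicates 1 to 4. In mutant replicates 1 to 4 the factor was 14.1, 26.7, 46.4 and 31.5, so all 4 lay above every WT library. On the log2 scale PPO1 minus PPO2 had a mean of −3.15 ± 0.23 for WT and −4.68 ± 0.68 for the mutant (SD, n = 4 each), a difference of −1.53 (two-sided exact permutation p = 0.0286).

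The same within-library difference was computed against each of the 6 other members. These comparisons share the PPO1 values and are not independent of the PPO1 call, and their p-values are not adjusted. PPO1 fell further than lz by a log2 difference of −1.48, further than peb by −1.15 and further than klu by −1.61, each with an exact permutation p of 0.0286. Against CG17109 the difference was −1.05 (exact permutation p = 0.0571) and against CG10467 it was −1.54 (exact permutation p = 0.0857), and for these the groups overlapped. The difference from CG17109 moved with the pseudocount, to −0.27 (exact permutation p = 0.857) at 0.1 TPM and −1.32 (exact permutation p = 0.0286) at 5 TPM. The difference from peb kept an exact permutation p of 0.0286 with any library left out. Tests with a library left out have fewer assignments, and there 0.0286 is the smallest possible p and 0.0571 the next. With a WT library left out the exact permutation p was 0.0571 against PPO2 and klu for each of the 4 libraries. Against lz it was 0.0571 for replicates 1, 3 and 4. With a mutant library left out it was 0.0286 for PPO2, klu and lz. For these genes the groups did not overlap with any library left out. The difference from CG10467 reached −2.09 with an exact permutation p of 0.0286 without mutant replicate 1.

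**Figure D2:**
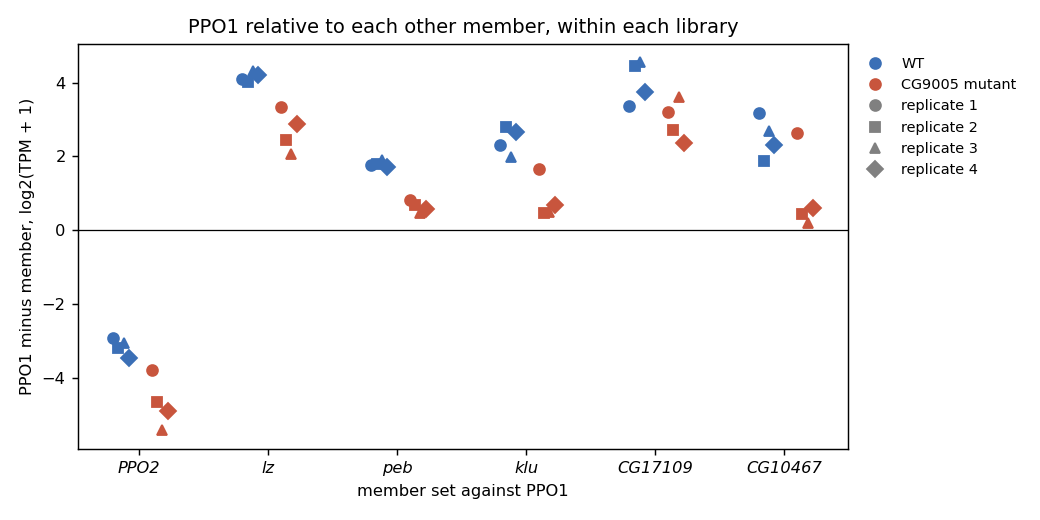
PPO1 minus each other member on the log2(TPM + 1) scale (vertical axis) within each library, WT in blue and CG9005 mutant in red, marker shape giving the replicate. Relative to PPO2, lz, peb and klu the mutant libraries lie below the WT libraries with no overlap, and relative to CG17109 and CG10467 they overlap.

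Of the transcription factor genes, peb came nearest to a call. It encodes the zinc finger protein Hindsight (FBgn0003053, X, 4617564 to 4627206, plus strand), a Notch target in crystal cells that is also made in the amnioserosa and the trachea. Its level was 14.2, 15.7, 18.7 and 19.7 TPM in WT replicates 1 to 4, and 14.5, 9.32, 7.86 and 8.88 TPM in mutant replicates 1 to 4. Mutant replicates 2 to 4 lay below every WT library, while mutant replicate 1 lay just above WT replicate 1. The mutant mean was 10.1 ± 2.97 TPM, with a log2 fold change of −0.72 (SE 0.24, 95% interval −1.24 to −0.20). It did not pass over all genes (limma adjusted p = 0.224, exact permutation p = 0.0571), although the unadjusted limma p was 0.0113.

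The Runx gene lz (FBgn0002576, X, 9284649 to 9303636, plus strand) is the switch to crystal cell fate. Its level was 2.04, 2.54, 2.68 and 2.70 TPM in WT replicates 1 to 4, and 1.74, 2.08, 1.92 and 1.01 TPM in mutant replicates 1 to 4. Mutant replicates 1, 3 and 4 lay below every WT library and mutant replicate 2 lay just above WT replicate 1. The log2 fold change was −0.39 (SE 0.30, 95% interval −1.05 to 0.26, limma adjusted p = 0.673, exact permutation p = 0.0571). It was −0.57 with a pseudocount of 0.1 TPM, −0.17 with one of 5 TPM and −0.26 without mutant replicate 4. From 49 to 120 reads per library fell on lz.

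The zinc finger gene klu (FBgn0013469, 3L, 10981171 to 11009188, minus strand) is known from neuroblasts and from crystal cells. Its level was 9.50, 7.36, 17.7 and 9.85 TPM in WT replicates 1 to 4, and 7.75, 11.1, 7.71 and 8.20 TPM in mutant replicates 1 to 4. The groups overlapped, and WT replicate 3 was the high library. The log2 fold change was −0.27 (SE 0.28, 95% interval −0.89 to 0.35, limma adjusted p = 0.773). It was −0.04 without WT replicate 3 and −0.42 without WT replicate 2.

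Of the enzyme genes, CG17109 (FBgn0039051, 3R, 23095690 to 23097240, plus strand) belongs to the aminoacylase family. Its level was 4.01, 1.66, 2.15 and 4.05 TPM in WT replicates 1 to 4, and 1.98, 1.52, 0 and 1.88 TPM in mutant replicates 1 to 4. The groups overlapped through WT replicate 2. No read was counted in mutant replicate 3, which with a limit of 3 reads allows up to 0.159 TPM for counting error only, and the other 7 libraries had 27 to 80 reads. The log2 fold change was −0.82 (SE 0.43, 95% interval −1.77 to 0.12, limma adjusted p = 0.494). It was −2.14 with voom on the recovered reads, −1.67 with a pseudocount of 0.1 TPM, −0.33 with one of 5 TPM and −0.45 without mutant replicate 3, with no call in any of these.

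CG10467 (FBgn0035679, 3L, 6093204 to 6094747, minus strand) belongs to the aldose 1-epimerase family, enzymes that interconvert the ring forms of sugars. Its level was 4.77, 14.9, 10.5 and 12.7 TPM in WT replicates 1 to 4, and 3.46, 11.2, 9.69 and 8.66 TPM in mutant replicates 1 to 4. Replicate 1 was the lowest library of each group, as for PPO2, and the groups overlapped. The log2 fold change was −0.34 (SE 0.39, 95% interval −1.21 to 0.53, limma adjusted p = 0.804). It was −0.02 without mutant replicate 1, −0.16 without WT replicate 2 and −0.65 without WT replicate 1, with no call in any of these.

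In all, 1 of the 7 genes was called at an adjusted p under 0.05, against 1.67% of tested genes called in either direction and 0.792% called lower. All mutant libraries lay below all WT libraries for 1 of the 7, against 4.52% of tested genes. All 7 log2 fold changes were below 0, as were those of 58.3% of tested genes, and their median was −0.39 where that of every tested gene together was −0.06. The members were chosen with earlier results of these data known, so these counts are descriptive and no independent comparison with all tested genes. In the authors' deposited table PPO1 was the 1 member past an adjusted p of 0.05 (log2 fold change −1.88, adjusted p = 0.00861), against 0.579% of the genes listed there. The authors' deposited table gave the other members unadjusted p-values of 0.124 for CG17109 to 0.967 for PPO2.

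**Figure D3:**
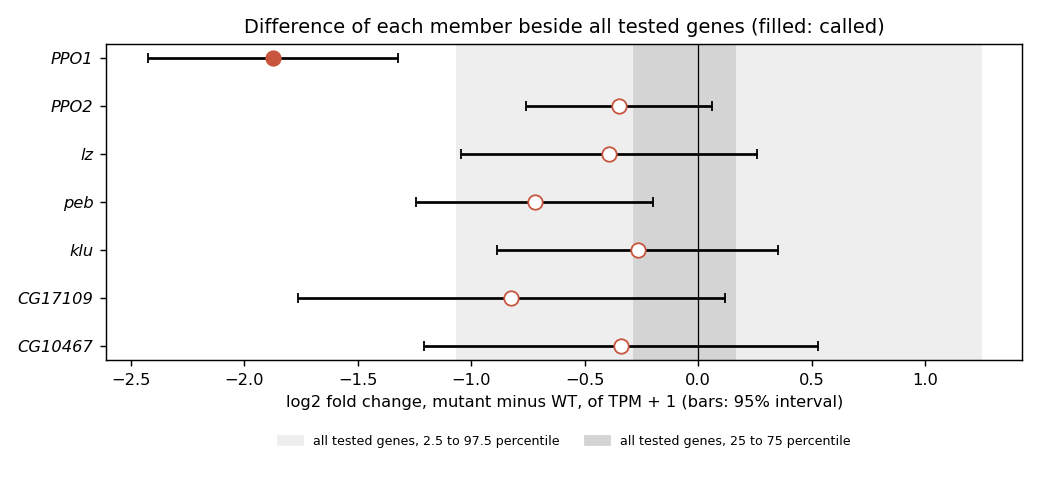
Log2 fold change of each member (horizontal axis, mutant minus WT, of TPM + 1), with 95% intervals from limma and the spread of tested genes in grey. PPO1 at −1.88 lies outside the central range of tested genes, −1.06 to 1.25, and the intervals of PPO2, lz, klu, CG17109 and CG10467 include 0.

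The genes whose profile was most like that of PPO1 over the 8 libraries were fs(2)ltoPP43 (Pearson r = 0.995), Men (0.986), eys (0.984), CG42831 (0.977) and oaf (0.971), and all 5 were called lower in the mutant. This r includes the difference between the genotypes. A lower level in the mutant was therefore built into the choice of these 5 genes and is no separate result. With single libraries left out, eys and CG42831 were called in 8 of 8 fits, Men in 5 (not without WT replicate 2 or mutant replicates 2 and 4), fs(2)ltoPP43 in 2 (without WT replicate 1 or mutant replicate 1) and oaf in 1 (without mutant replicate 1). Men, a malic enzyme gene, averaged 130 ± 16.7 TPM for WT and 70.3 ± 10.6 TPM for the mutant. For eys, an extracellular protein gene known from the eye, the means were 7.98 ± 0.389 and 0.757 ± 0.619 TPM. Among the members, peb ranked 9 by this measure (r = 0.961). Once each group mean was subtracted, peb ranked first of all tested genes (r = 0.978 over 8 libraries), followed by bs, CG33993, CG32813 and fs(2)ltoPP43 with r of 0.957 to 0.972. The log2 fold changes of bs, CG33993 and CG32813 were 0.08, 0.15 and 0.23, none called, and that of fs(2)ltoPP43 was −0.95. In the mutant both PPO1 and peb were highest in replicate 1 and lowest in replicate 3. By that measure r with PPO1 was 0.25 for lz, 0.24 for klu, 0.48 for CG17109, −0.05 for PPO2 and −0.40 for CG10467. The points share libraries and depth, and the named genes were picked as the highest of many.

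Among the genes around the members that passed the filter none was called, where 1.67% of all tested genes were called. Many of these neighbours, with Elk, Cow and CG17110 among them, did not pass the filter and were not tested. PPO1 lies inside Elk, a potassium channel gene on the opposite strand, which averaged 0.380 ± 0.255 TPM for WT and was listed at 0 in every mutant library. Overlaps were taken from gene spans, and shared exons were not checked. Without a stated strand setting, reads from any exon that an overlapping pair shares cannot be told apart, and Elk was far below PPO1. CG17109 lies inside Cow on the opposite strand, with means of 0.0892 ± 0.178 TPM for WT and 0.768 ± 0.601 TPM for the mutant. One end of CG10467 overlaps CG10469 on the same strand, with means of 51.5 ± 13.8 and 40.1 ± 5.0 TPM (log2 fold change −0.33, limma adjusted p = 0.589). CG17110, a family member beside CG17109, was listed at 0 in every library. CG6733, the family member on its other side, had means of 9.75 ± 7.29 and 5.77 ± 3.93 TPM (limma adjusted p = 0.823), and CG6465 had 2.83 ± 1.02 and 2.72 ± 1.05 TPM (limma adjusted p = 0.976). None of the 4 relatives listed for CG10467 passed the filter. Beside PPO2, the gene Ance-4 had means of 3.59 ± 1.47 and 1.68 ± 1.04 TPM (limma adjusted p = 0.434).

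The list of melanisation proteases and serpins also holds Toll pathway genes, so it is not limited to enzymes that cleave prophenoloxidase. It gave no call among 9 tested of 12 listed, with 6 above and 3 below 0. The median log2 fold change of those tested was 0.32, but it ran from 0.05 without mutant replicate 2 to 0.60 without mutant replicate 3. It was −0.31 over the 2 genes that pass the strict filter. Over all tested genes 1.67% were called in either direction, 58.3% had a log2 fold change below 0, and the median was −0.06. Hayan, a protease that activates melanisation after wounding, had means of 3.80 ± 2.33 TPM for WT and 8.88 ± 6.54 TPM for the mutant (limma adjusted p = 0.521). The serpin gene Spn27A, which restrains the cascade, had means of 39.2 ± 8.02 and 29.9 ± 10.9 TPM (limma adjusted p = 0.576). SPE, a Toll pathway protease, had means of 3.58 ± 3.41 and 6.34 ± 4.09 TPM (limma adjusted p = 0.615). The groups overlapped for all 3. The protease gene Sp7 stayed below 1 TPM in every library and was not tested.

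Enzymes that make melanin precursors were mostly too low to test, with 3 tested of the 12 genes found out of 14 listed. None was called, apart from Hn without mutant replicate 3, where 1.67% of all tested genes were called in the main test. Hn, phenylalanine hydroxylase, had means of 2.22 ± 0.677 TPM for WT and 10.03 ± 6.90 TPM for the mutant (log2 fold change 1.45, limma adjusted p = 0.325), and without mutant replicate 3 it passed (2.08, limma adjusted p = 0.0170). Pu, which makes the pterin cofactor, had means of 3.90 ± 2.27 and 9.11 ± 4.21 TPM (1.11, limma adjusted p = 0.388). The gene yellow-h had means of 1.71 ± 1.04 and 0.937 ± 1.10 TPM (−0.57, limma adjusted p = 0.695). The groups overlapped for all 3. The tyrosine hydroxylase gene ple and the pigment genes y, t and b stayed below 1 TPM in every library. PPO3 had means of 0.486 ± 0.392 and 0.927 ± 0.744 TPM and was not tested.

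Among 3 tested of 6 clot factors none was called, where 1.67% of all tested genes were called. The clot protein gene fon held 22.3, 4.29, 3.36 and 4.08 TPM in WT replicates 1 to 4, and 23.8, 125, 17.2 and 36.8 TPM in mutant replicates 1 to 4. The groups overlapped through WT replicate 1 and mutant replicate 3 (log2 fold change 2.41, limma adjusted p = 0.111). Without WT replicate 1 fon was called higher (2.97, limma adjusted p = 0.0454), and in no other alternative. Pxn, a peroxidase of macrophages, was not called either (log2 fold change −0.36, limma adjusted p = 0.475).

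Of the Runx, GATA and Gcm factors, gcm2, a Gcm factor of the macrophage lineage, was the 1 called gene of 6 tested. Over all tested genes 1.67% were called in either direction and 0.792% lower. The level of gcm2 fell in the mutant, with means of 31.5 ± 1.91 TPM for WT and 16.4 ± 3.85 TPM for the mutant. Its log2 fold change was −0.93 (limma adjusted p = 0.0429). It was called in 5 of 19 alternatives and lost its call in 14, among them both other scalings and 7 of 8 fits with a single library left out (limma adjusted p 0.0273 without mutant replicate 3, otherwise up to 0.149). The Runx partner gene Bgb had means of 24.5 ± 8.25 and 21.0 ± 5.74 TPM (limma adjusted p = 0.843), and the Runx gene run 1.78 ± 0.894 and 1.25 ± 0.554 TPM (limma adjusted p = 0.832). The GATA factor gene srp had means of 30.0 ± 10.5 and 25.9 ± 2.58 TPM (limma adjusted p = 0.912). Chosen after their values were seen, gcm had means of 220 ± 52.9 and 221 ± 46.2 TPM (limma adjusted p = 0.987), and RunxB, which did not pass the filter, 0.834 ± 0.465 TPM for WT with 0 listed in every mutant library.

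None of the 22 Notch pathway genes was called, although 21 had a log2 fold change below 0, and the list's median was −0.35. Over all tested genes 1.67% were called and 58.3% were below 0, with a median of −0.06. The Notch count was 20 with quantile normalisation and with median centring, 19 to 21 with single libraries left out, and 12 with the stage covariate (median −0.07). Of the list, pen-2 was called lower with array weights and without WT replicate 3 (limma adjusted p = 0.0232). The smallest p belonged to pen-2, a gamma-secretase subunit, with means of 40.2 ± 10.04 and 21.2 ± 3.58 TPM (log2 fold change −0.86, limma adjusted p = 0.107). O-fut1, which adds fucose to Notch, had means of 6.89 ± 3.61 and 2.65 ± 0.978 TPM with no overlap between the groups (−1.05, limma adjusted p = 0.272). All mutant libraries lay below all WT libraries for 4.52% of tested genes. The Notch target E(spl)m3-HLH had means of 11.9 ± 5.42 and 5.97 ± 1.43 TPM (−0.82, limma adjusted p = 0.315). Chosen after its values were seen, Ser, the Notch ligand for larval crystal cells, had means of 1.34 ± 0.319 and 0.702 ± 0.401 TPM (limma adjusted p = 0.651).

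The Hippo pathway, whose effectors act on lz in larval blood, had no call among 8 tested genes, 7 of them below 0, with a median of −0.29. Again, 1.67% of all tested genes were called and 58.3% were below 0, with a median of −0.06. The kinase gene hpo had means of 7.0 ± 2.98 and 4.19 ± 1.24 TPM (limma adjusted p = 0.560), and its upstream regulator Mer 31.1 ± 5.22 and 23.9 ± 4.97 TPM (limma adjusted p = 0.526). Neither difference passed.

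**Figure D4:**
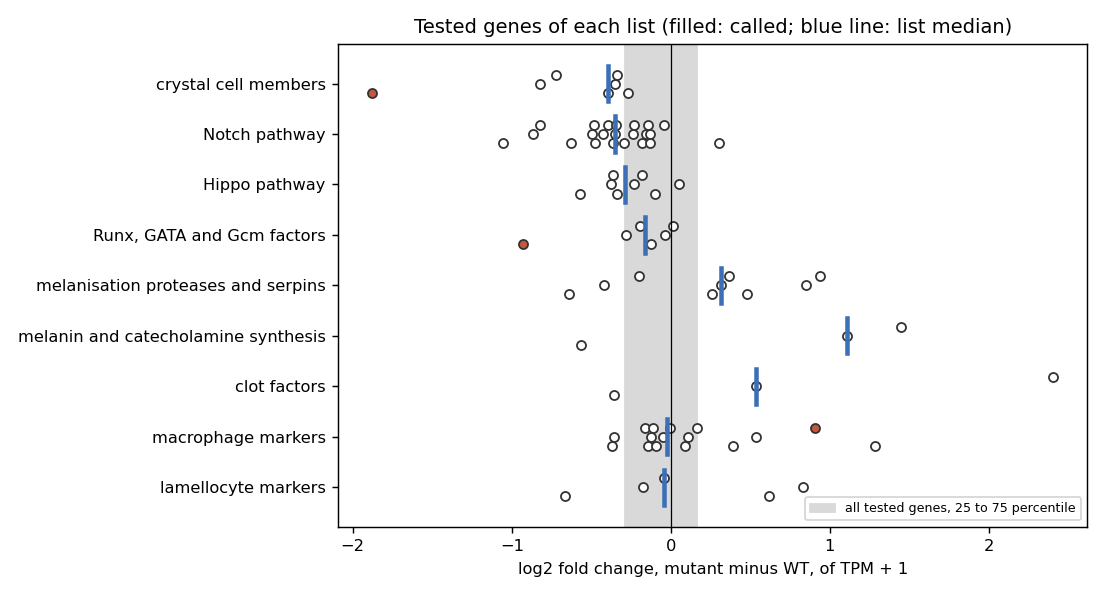
Log2 fold change (horizontal axis, mutant minus WT, of TPM + 1) of each tested gene by list, with called genes filled, list medians in blue and the interquartile range of tested genes in grey. PPO1, gcm2 and Sr-CI are the filled points, and the Notch list has 21 of 22 points below 0, against 58.3% of all tested genes.

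Markers of other cells that the sort could hold were read without the members among them, and their part in the results was not tested. Of the 20 macrophage markers 16 were tested, with 9 below 0 and a median log2 fold change of −0.03. The scavenger receptor gene Sr-CI was the 1 call, higher in the mutant with means of 394 ± 20.7 and 739 ± 29.1 TPM (limma adjusted p = 0.000818 at a log2 fold change of 0.91). Of all tested genes 1.67% were called in either direction. No marker of the other cell types was called. Beside the counts given here, 58.3% of all tested genes were below 0, with a median of −0.06. Tracheal markers had 4 of 4 tested below 0 (median −0.37), and summed to 17.8 to 39.9 TPM per WT library and 14.7 to 24.3 TPM per mutant library. Amnioserosa markers had 2 of 4 tested below 0 (median −0.18, sums of 8.55 to 25.2 and 6.92 to 29.4 TPM), with zen listed at 0 in every library. These are the tissues that also make peb. Neuroblast markers, of the lineage that also makes klu, had 6 of 7 tested below 0 (median −0.42, sums of 24.9 to 38.6 and 15.1 to 33.3 TPM). Midgut markers had 4 of 4 tested below 0 (median −0.38, sums of 28.4 to 67.8 and 31.4 to 44.8 TPM). The highest of them, srp, with means of 30.0 TPM for WT and 25.9 TPM for the mutant, is also on the macrophage list. Head sensory markers, from ectoderm that includes lz-expressing cells, had 2 of 3 tested below 0 (median −0.23, sums of 7.23 to 11.9 and 5.01 to 11.3 TPM). The sums of the 2 genotypes overlapped for every one of these lists. Lamellocyte markers had 3 of 5 tested below 0 (median −0.04, sums of 167 to 242 and 146 to 181 TPM). Most of these sums came from msn (means of 136 for WT and 120 TPM for the mutant) and mys (54.5 and 33.7 TPM). PPO3 (0.486 and 0.927 TPM) and atilla (0.557 and 1.74 TPM) added little, so the sums do not measure lamellocyte content. Of the fat body markers, Fbp1 and Lsp2 were listed at 0 in every library.

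The PPO1 call did not rest on 1 library. With each library left out its log2 fold change ran from −2.11 to −1.72 (limma adjusted p 0.00129 to 0.0135), and it was called in 18 of 19 alternative settings. The exception among these was the stage covariate, with −1.56 (SE 0.52, limma adjusted p = 0.397). The stage label separates the genotypes completely, with no value shared, and the collection protocol gives 1 stage for both.

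**Figure D5:**
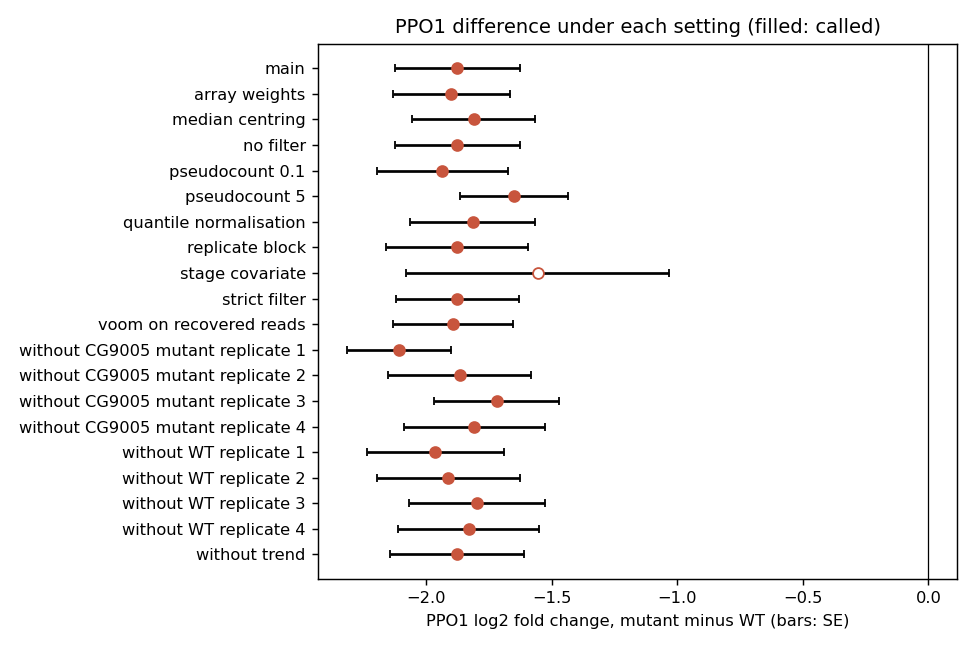
PPO1 log2 fold change, mutant minus WT (horizontal axis), with its SE under the main setting and 19 alternatives, filled where called. All values lie between −2.11 and −1.56, and the stage covariate is the open point.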

How the data were processed

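Macrophages sorted from embryos for mCherry were profiled in 4 WT and 4 CG9005 mutant libraries, grouped by sample title. The authors deposited TPM for 17494 genes per library, each column summing to 1000000. The submitters' processing notes name STAR (2.5.1b), HTSeq (0.5.4p3), R (3.4.4), limma and edgeR with build BDGP6, and no role for any of them. Strand use is not given in the sources used here. A table of the authors' own comparison, deposited in 4 identical copies, holds a log2 fold change, a p-value and an adjusted p-value per gene, from what its header calls a T-test.

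TPM times exon length (Ensembl release 115, BDGP6) gave whole reads within 0.05 for 98.8% to 99.0% of genes, and so the depth. Genes that reached 1 TPM in 4 or more libraries entered limma 3.58.1 (R 4.3.3) on log2(TPM + 1), which understates the change of low genes, with a trended prior and genotype as the term. P-values were adjusted by Benjamini and Hochberg over all 7827 genes. The limma code was tested on simulated data. Single values were tested by permuting the assignments of libraries exactly, two-sided. There are 70 assignments with all libraries and fewer with a library left out. Alternatives changed the libraries, filter, pseudocount, scaling, weights, prior or covariates, and voom was run on recovered reads.

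Genes named beside the members are those called or with the smallest p in each list, the highest marker per cell type, the neighbours of the members and the 5 genes most like PPO1 by each measure. Exceptions are stated as chosen after their values were seen. Members and lists were chosen with earlier results of these data known. Promoter motifs and protein identity were planned and are not analysed here. No label says that the replicates were separate collections, so p-values measure the spread between these libraries, which may be technical.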

Additional observations from a re-analysis of the deposited data

Results flagged for a closer look

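Within groups of 4 libraries, 11 of 110 groups had a library far from the other 3 by Dixon's gap test at the 95% level. For normally spread values chance flags about 1 in 20. Of the members, klu had mutant replicate 2 high at 11.1 TPM, with 8.20 TPM next. WT replicate 1 was high for fon at 22.3 TPM, and WT replicate 4 for Mer, a Hippo pathway gene, at 38.9 TPM. WT replicate 3 was high for toy, an eye specification gene, at 6.16 TPM and for CG42831 at 124 TPM. The other flags were neighbours of the members at very low level. WT replicate 3 had CG30110 at 0.674 TPM, CR44534 at 2.27 TPM and Fad2 at 0.421 TPM, each with 0 in the other WT libraries. Mutant replicate 1 had CG13743 at 0.722 TPM and CR32773 at 0.789 TPM, and mutant replicate 2 had CR44534 at 0.159 TPM. CG13743 and CR44534 had 0 in the other mutant libraries. A group with a single value above 0 is flagged whatever that value, so the share of 1 in 20 does not hold for such groups.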

How the results depend on the processing

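PPO1 stayed below 0 in all 19 alternatives and lost its call only with the stage covariate (log2 fold change −1.56), where 0 members and 9 genes were called. The number of genes called, 131 in the main test, was 76 without a filter, 75 with the strict filter and 71 to 110 with single libraries left out. It was 72, 74 and 86 without WT replicates 1, 2 and 4, and 73 and 71 without mutant replicates 2 and 4. The correlation of deviations of same-numbered libraries was 0.0770, −0.146, −0.0393 and −0.0430. These values show no pairing by number across all genes. Whether same-numbered libraries were handled together was not tested. With the replicate block 52 genes were called and PPO1 kept its call (limma adjusted p = 0.0325). The other 6 members stayed below 0 and uncalled wherever they were tested, with PPO2 at −1.14 and CG10467 at −1.63 under the stage covariate, where the cause was not tested. PPO1 against CG17109 was −1.32 with a pseudocount of 5 TPM (exact permutation p = 0.0286) and −0.27 with 0.1 TPM (exact permutation p = 0.857). With single libraries left out, PPO1 differed by −1.83 to −1.28 from PPO2, −1.70 to −1.28 from lz, −1.22 to −1.10 from peb, −1.89 to −1.49 from klu, −1.27 to −0.85 from CG17109 and −2.09 to −1.28 from CG10467. The exact permutation p of these differences rose from 0.0286 to 0.0571 without single WT libraries against PPO2, klu and lz, although the groups still did not overlap. With a library left out these are the smallest possible p and the next. Called genes in the Runx, GATA and Gcm list went from 1 to 0 with quantile normalisation and 0 with median centring, and gcm2 lost its call in 14 of 19 alternatives, including no filter, pseudocount 0.1, no trend, the block, the stage covariate and 7 of 8 single-library omissions. Single calls appeared for fon without WT replicate 1, Hn without mutant replicate 3 and pen-2 with array weights or without WT replicate 3.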
